A study of Mus musculus with 4 samples.

Results

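In the liver of mice with a ligated bile duct, 18739 stretches of open chromatin away from gene starts were called as peaks in the wild-type library and touched no peak of the Mertk knockout library. They were 25.9% of the 72302 wild-type peaks on chromosomes 1 to 19, X and Y, and 32.9% of the 57035 wild-type distal peaks. A peak was chosen if the authors' annotation gave it at least 1 distal line and no promoter line, and if it shared no base with any of the 106319 knockout peaks. The choice itself therefore used the difference between the genotypes, and the numbers that describe it are given as a description, without a test.

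Wild-type and Mertk knockout livers were compared after bile duct ligation, which both genotypes received, so there was no unligated group. Open chromatin (ATAC) and RNA were read from the same nuclei of frozen tissue with the 10x Genomics Multiome assay, with 1 ATAC and 1 RNA library per genotype. The labels give neither the strain, age and sex of the mice nor the time after ligation, and they do not say how the knockout was made or how many animals stand behind a library. With 1 library per genotype no difference could be checked against the spread between animals, so no p-value is given, and every count below compares these 2 libraries.

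Distal open chromatin holds many of the enhancers through which transcription factors act on genes at a distance, and the set that is open differs strongly between cell types. Ligation of the bile duct blocks bile flow and leads to injury of hepatocytes, growth of bile ducts, inflammation with entry of blood leukocytes, and scarring. Mertk is a receptor tyrosine kinase of macrophages that binds dying cells through the bridging proteins Gas6 and Pros1 and takes part in their removal. A peak called over all nuclei of a library can be lost because fewer nuclei of a cell type were caught or because the site was less open in each of them, and these cannot be told apart here.

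The knockout library was the deeper one. It held 83996145 ATAC fragments in 5339 called nuclei, against 40858512 in 5828 wild-type nuclei, a ratio of 2.06. In the knockout 46.0% of these fragments lay in the library's own peaks, against 33.7% in the wild type. By the same rule in the other direction, 49403 of 87769 knockout distal peaks (56.3%) were knockout-only. Most hepatocyte markers, which define the labelled tissue, lacked a promoter peak in the wild type: of 19 hepatocyte genes with a peak, 4 (Ass1, Fga, Hnf4a and Tat) had a promoter peak in both libraries and 15, Alb among them, had one in the knockout alone. The part of depth and of cell makeup in the membership of a peak was not tested.

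Among the members were the peaks over 2 microRNA genes of blood cells, Mir155 and Mir223, picked from the 10 hairpins that lay wholly inside a member because both are known from blood cells. miR-155 is induced in activated lymphocytes and macrophages, and miR-223 is a microRNA of neutrophils and other myeloid cells. The mature sequences, from RefSeq (GRCm38.p6), follow with the seed, bases 2 to 8, in capitals.
mmu-miR-155-5p: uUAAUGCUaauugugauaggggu
mmu-miR-223-3p: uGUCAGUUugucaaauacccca
The 2 seeds differ, so the pair does not form a seed family. Of 1005 microRNA hairpins in the RefSeq table, 10 lay inside a member, 33 inside a shared wild-type distal peak and 41 inside a knockout-only distal peak. Of every 1000 peaks, those that held a hairpin numbered 0.48 among members, 0.809 among shared and 0.749 among knockout-only peaks. Mir9-1, Mir1198, Mir3069 and Mir3965 were among the other hairpins inside members.

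At Mir155 (chr16:84714140-84714204, plus strand), the member chr16:84713816-84714607 covered the hairpin and lay 10150 bp from the nearest knockout peak. A second member, chr16:84712722-84713702, had its centre at -961 bp from that of the hairpin. Both were assigned to the host gene Mir155hg. Within 25 kb on either side, the wild type had these 2 members and 2 shared promoter peaks, and the knockout had only the 2 shared promoter peaks. At Mir223 (chrX:96242817-96242926, plus strand), the member chrX:96242364-96243249 covered the hairpin and lay 2095 bp from a knockout peak. Within 25 kb of this hairpin the wild type had 8 members and 4 shared peaks, while the knockout had the 4 shared peaks and none of its own. 5 of the 8 members lay in a run of 13.4 kb (chrX:96242364-96255797) that held no knockout peak, and 3 of these were also assigned to Vsig4, the complement receptor of resident liver macrophages. The promoter peak nearest to Mir223 was shared, with its centre at -3017 bp from that of the hairpin in the wild type and at -3038 bp in the knockout.

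**Figure D1:**
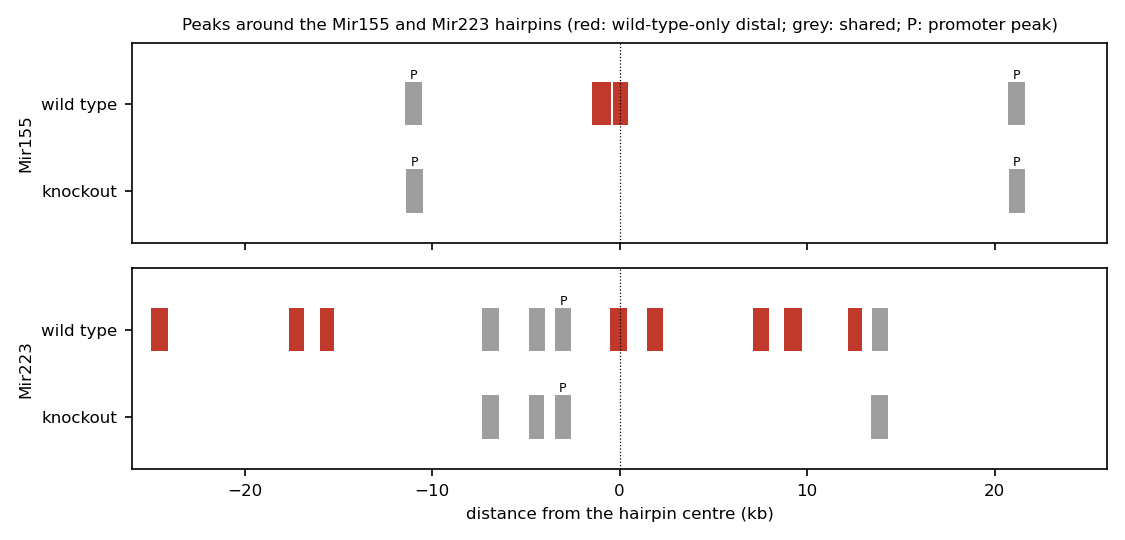
Peaks within 25 kb of the Mir155 and Mir223 hairpins in each library, drawn to scale against the distance from the hairpin centre in kb (genome direction left to right). Red boxes are wild-type-only distal peaks (2 at Mir155, 8 at Mir223), grey boxes are peaks that overlap the other library, and P marks promoter peaks. The knockout rows hold grey boxes alone.

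Start regions of genes were rare inside the members. Of the RefSeq windows of 250 bases before a gene start, 108 lay wholly inside a member. Such a window was held by 0.539% of members, 1.25% of shared wild-type and 0.777% of knockout-only distal peaks. Promoter peaks had been left out of all 3 classes. The window of Mir155hg (chr16:84712773-84713022, plus strand, GRCm38.p6) lies in the member beside Mir155. This member stands 9555 bp downstream of the Mir155hg start that the authors' annotation uses, and the promoter peaks within 25 kb of Mir155 were shared. The window of Tlr6, a Toll-like receptor for bacterial lipopeptides (chr5:64959167-64959416, minus strand), lies in a member 310 bp downstream of the start that the annotation uses. Both windows are printed 5′ to 3′ because they put base letters under a member of an immune gene. Capitals mark matches to the letters GAAANNGAA (an IRF element), TGTGGTT (a RUNX element) or TTGCNNAA (a C/EBP element) on either strand.
Mir155hg window: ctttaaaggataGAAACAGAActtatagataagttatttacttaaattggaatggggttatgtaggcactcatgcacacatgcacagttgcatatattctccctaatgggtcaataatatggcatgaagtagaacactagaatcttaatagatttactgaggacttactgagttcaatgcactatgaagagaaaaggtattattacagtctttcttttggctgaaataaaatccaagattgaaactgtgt
Tlr6 window: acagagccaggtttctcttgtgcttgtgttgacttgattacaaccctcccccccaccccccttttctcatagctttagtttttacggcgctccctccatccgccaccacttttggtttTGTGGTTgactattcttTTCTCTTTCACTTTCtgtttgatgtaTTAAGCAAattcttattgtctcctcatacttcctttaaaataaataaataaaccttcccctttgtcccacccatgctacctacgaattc
The Mir155hg window holds 1 IRF match, and the Tlr6 window holds 1 RUNX match, 1 C/EBP match and 2 IRF matches that overlap. Over all 108 windows in members, 16 (14.8%) held the RUNX letters, 15 (13.9%) the IRF letters and 8 (7.41%) the C/EBP letters. Among all 32851 windows of RefSeq the shares were 4.4% for RUNX, 7.13% for IRF and 9.56% for C/EBP. In windows inside shared distal peaks they were 4.41%, 8.06% and 8.25% of 521, and in windows inside knockout-only distal peaks 5.83%, 6.76% and 22.4% of 429. The other motifs searched on both strands were PU.1 (GAGGAAGT, in 6.48% of the windows in members and 2.44% of all), ETS (CAGGAAGT, 8.33% and 2.69%), AP-1 (TGANTCA, 9.26% and 6.75%) and NF-kB (GGANTTTCC, 1.85% and 1.07%). In windows inside shared distal peaks these 4 shares were 5.18%, 3.07%, 8.83% and 0.768%. In windows inside knockout-only distal peaks they were 1.63%, 1.86%, 9.09% and 1.17%, so the AP-1 share was similar in all 3 classes. The PU.1 and ETS letters differ at their first base and share the rest. These are matches of letters in few windows near gene starts, and they describe neither bound sites nor the other members.

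The members were of ordinary size. Their median width was 864 bp (quartiles 808 and 903, range 143 to 1580), beside 875 bp for shared wild-type distal peaks and 877 bp for knockout-only ones, and they covered 15.8 Mb. The nearest knockout peak stood at a median of 3788 bp (quartiles 1272 and 9740.5), and for 2337 members (12.5%) it was closer than 500 bp. Knockout-only distal peaks stood farther from the nearest wild-type peak, at a median of 7024 bp, with 6.11% closer than 500 bp. At the edge of the rule, 219 members had a knockout peak closer than 50 bp, and 188 wild-type distal peaks were no members because of an overlap of at most 50 bp. A peak of Igf1 (chr10:87841248-87842076) touched a knockout peak with a gap of 0 bp and was a member. A peak of Runx1 (chr16:92714809-92715193) overlapped one by 1 bp and was not.

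Position relative to genes was similar in all 3 classes. The annotation writes distance 0 for a peak in the body of a gene when it does not relate the peak to a start of that gene, and 3990 members (21.3%) had such a line, beside 21.0% of shared and 22.3% of knockout-only distal peaks. This label missed most peaks in genes: 11860 members (63.3%) lay wholly inside a RefSeq gene, beside 61.0% of shared and 64.0% of knockout-only peaks. Of the members, 8105 (43.3%) were inside a RefSeq gene and carried no distance of 0. For the 16060 members whose gene with the nearest start could be matched to RefSeq, 7407 (46.1%) lay inside that same gene. Distances to the assigned start other than 0 had a median of 17521 bp for members, 15639.5 bp for shared and 17580 bp for knockout-only peaks. Members lay upstream of the start in 42.5% of cases. They were 50 kb or more from it in 19.2% of cases, against 15.5% of shared and 19.4% of knockout-only peaks.

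The genes to which members were assigned mostly had an open promoter in both libraries. For 13112 members (70.0%) the nearest assigned gene had a promoter peak in both, a feature that the rule did not use. The share was 70.0% for shared and 63.3% for knockout-only distal peaks. A promoter peak in the wild type alone was found for 2.82% of members and one in the knockout alone for 6.07%. Among knockout-only peaks these shares were 1.38% and 12.6%.

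Chromosome X stood apart among the chromosomes in the share of its wild-type distal peaks that were members. On X 495 of them, or 41.6%, were wild-type-only, while the autosomes ranged from 27.5% on chromosome 11 to 35.8% on chromosome 13. X held 2.64% of members, 1.81% of shared and 2.05% of knockout-only distal peaks. The Y chromosome held 4 members. The labels do not give the sex of the animals.

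**Figure D2:**
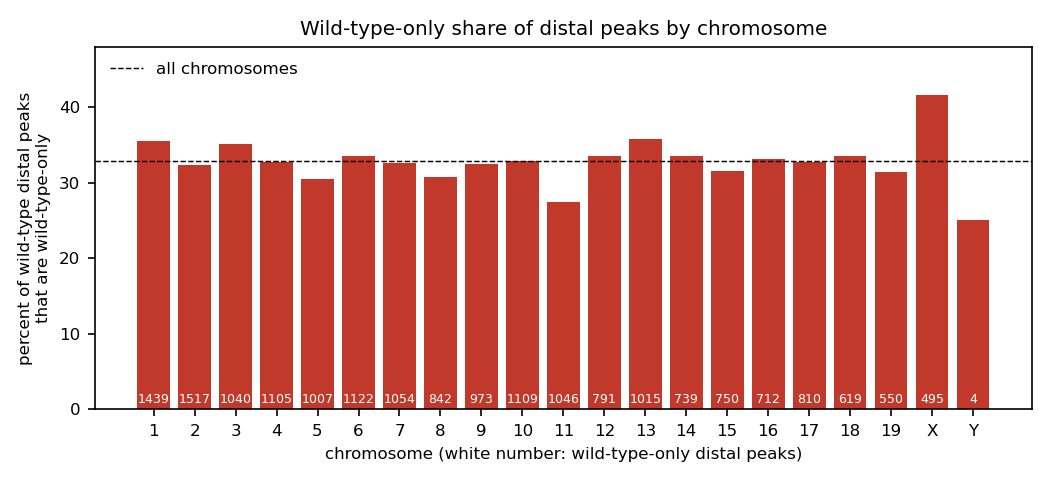
Percent of the wild-type distal peaks of each chromosome that were wild-type-only, as bars from 0, with the number of such peaks in white and the value over all chromosomes (32.9%) as a dashed line. X has the tallest bar at 41.6% and chromosome 11 the lowest among the autosomes at 27.5%.

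Members were spread over 10563 of the 25458 genes with a peak in either library, and 947 genes had 5 or more. Large genes gather more peaks: the median RefSeq length was 111 kb for the 861 of these genes with a length and 28.1 kb for genes with 1 to 4 members. Of the 947 genes, 523 had more wild-type-only than knockout-only distal peaks, 67 had as many and 357 had fewer. For 692 of them (73.1%) the promoter was called open in each library, beside 56.2% of all genes with a peak.

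Foxp1, a forkhead repressor with roles in lymphocytes and monocytes, had the most, with 22 members beside 29 shared and 33 knockout-only distal peaks. 20 of the 22 lay inside the gene and only 2 carried a distance of 0. Bach2, a repressor that restrains effector lymphocytes, had 19 members, 24 shared and 22 knockout-only peaks. Arid1b, a subunit of BAF chromatin remodelling complexes, had 20 members and 34 knockout-only peaks. These 3 genes thus carried many private peaks in each library. Rere (16 members, 18 knockout-only), Hivep3 (17 and 17), Nrp1 (17 and 22), Morrbid (15 and 19) and Ldlrad4 (15 and 14) were of the same kind. Pde4d, a cyclic AMP phosphodiesterase gene of 1302 kb, had 17 members and 47 knockout-only peaks.

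The balance leaned to the wild type at another group of these long genes. Dock10, a guanine nucleotide exchange factor found in lymphocytes, had 17 members, 10 shared and 5 knockout-only distal peaks. Sh3kbp1, an adaptor in receptor endocytosis on chromosome X, had 16 members and 3 knockout-only peaks. Cask, a scaffold kinase of the same chromosome, had 19 members and 7 knockout-only peaks. Dock10 and Sh3kbp1 held all but 1 of their members inside the RefSeq gene (16 of 17 and 15 of 16). Tbc1d5 (15 members, 6 knockout-only), Pag1 (15 and 9) and Snx29 (15 and 9) leaned the same way. Cmss1 had 19 members and 9 knockout-only peaks and Filip1l 15 and 7, but the genes overlap and all 15 peaks of Filip1l were also assigned to another gene.

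Fgfr2, a receptor for fibroblast growth factors, shows how far a count can rest on a gene model. It was given 19 members, 76 shared and 113 knockout-only distal peaks. All 19 members carried a distance of 0 and an assignment to another gene as well. None lay inside the RefSeq gene, which is 104 kb long; they ran over 2248 kb (chr7:130647999-132895502) outside it. All 6 members of Cx3cr1, the fractalkine receptor of monocytes, and 7 of the 15 members of Morrbid likewise had a distance of 0 but lay outside the RefSeq gene.

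A set of 172 genes had 4 or more members and no knockout-only distal peak, beside 2146 genes with the reverse. Of the 172, 81 had a promoter peak in both libraries, 19 in the wild type alone, 2 in the knockout alone and 70 in neither. Over all genes these shares were 56.2%, 2.19%, 10.6% and 31.0%. Tnfsf8, the CD30 ligand of activated lymphocytes and myeloid cells, led them with 11 members and 1 shared peak. Its members ran from 45.1 kb downstream to 48.2 kb upstream of the start, 3 of them inside the gene, and the nearest knockout peaks stood 2627 to 45644 bp away. Itga4, the integrin subunit with which leukocytes bind VCAM1, had 10 members, 8 shared peaks and a promoter peak in the wild type alone. St8sia4, a polysialyltransferase, had 10 members and 5 shared peaks. These 3 genes carried their members over 95.1 kb, 232 kb and 146 kb.

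Pla2g4a, the cytosolic phospholipase A2 that releases arachidonic acid, had 9 members and 8 shared peaks. Samsn1, an adaptor of lymphocytes, had 9 members and 5 shared peaks, and Ptger4, a prostaglandin E2 receptor, had 8 and 6, none of them inside the gene. Sirpb1a, an activating receptor of myeloid cells, had 8 members and 1 shared peak. Cd226, an activating receptor of natural killer and T cells, had 7 members, 1 shared peak and a promoter peak in the wild type alone. Rad18 (8 members, 10 shared) and Tmem68 (8 and 3) completed the 10, and 5 of the 8 members of Rad18 were also assigned to another gene. At 7 members the cut was alphabetical: Mef2c, with 7 members, 11 shared and no knockout-only peak, equalled Cd226 and fell outside the 10. Several of the 10 are known from blood cells, but they were chosen by the absence of knockout-only peaks, so their zero is no separate result.

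**Figure D3:**
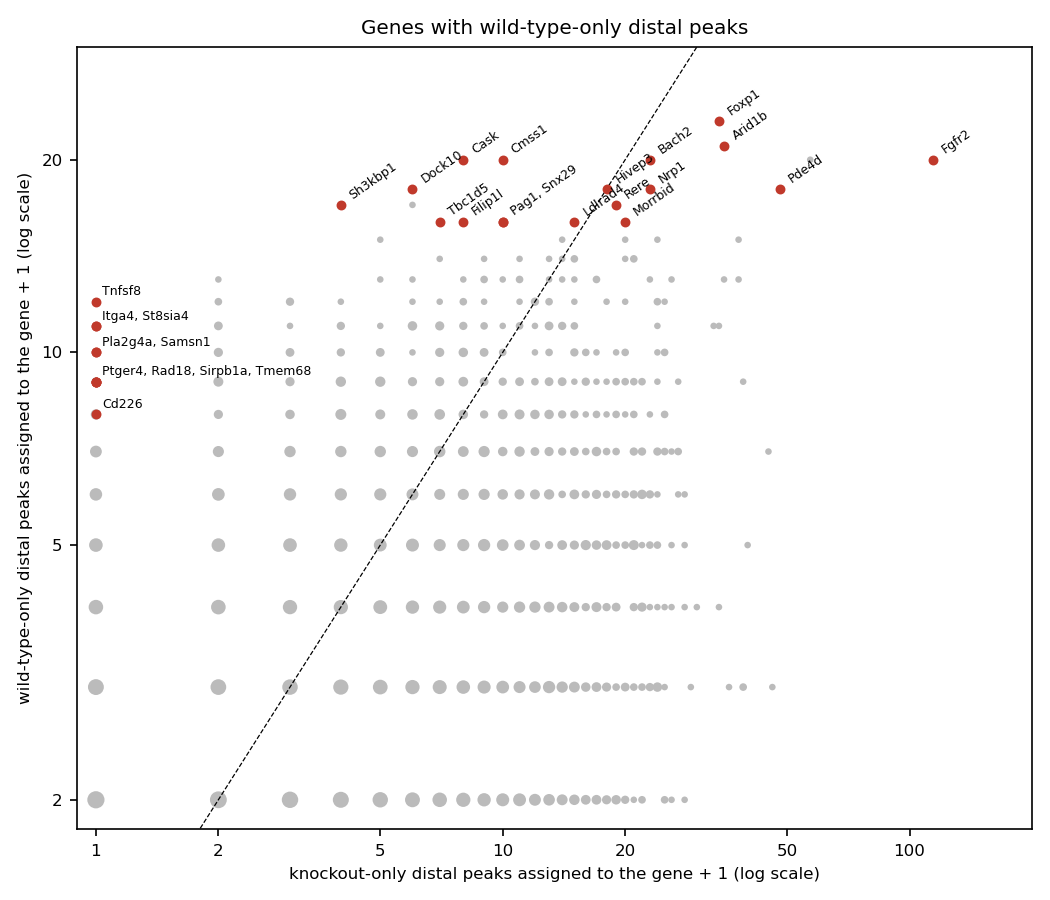
Wild-type-only against knockout-only distal peaks per gene, both plus 1 on log axes. Grey dots are all genes with a member (larger dots stand for more genes). Red dots are the genes with the most members and 10 named genes with the most members among those without a knockout-only peak (equal counts cut alphabetically). On the dashed line both counts are equal. Foxp1 is highest with 22 members, Fgfr2 lies far right with 113 knockout-only peaks, and Tnfsf8 tops the left edge with 11.

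Lists of cell type markers and pathway genes were read by the number of genes with at least 3 members, which over all genes was 10.5% (2665 of 25458). At least 3 members and more of them than knockout-only distal peaks were found for 5.35% of genes, and at least 3 knockout-only peaks for 31.0%. The rule used this contrast, so the percentages are set beside the counts and nothing is read from them. Of 114 blood cell and macrophage markers with a peak, 32 (28.1%) had at least 3 members and 22 of these leaned to the wild type, that is, had more members than knockout-only peaks. Of 66 markers of hepatocytes, cholangiocytes, stellate and endothelial cells, 5 (7.58%) had at least 3 members and 2 leaned to the wild type. The distal peaks of the first group comprised 197 members, 362 shared and 212 knockout-only peaks, and those of the second 40, 160 and 329. Over all genes there were 0.379 members for each knockout-only peak, against 0.929 in the first group and 0.122 in the second.

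Natural killer and cytotoxic cell markers had 31 members, 34 shared and 12 knockout-only distal peaks. 6 of 15 genes had at least 3 members, and 5 of the 6 leaned to the wild type. Klrk1, which encodes the activating receptor NKG2D, had 4 members and no other distal peak, and all 4 stood at least 48271 bp from a knockout peak. Ncr1, the receptor NKp46, had 4 members and 2 shared peaks, and Cd244a, a receptor of the SLAM family, had 3 members, 2 shared and 2 knockout-only peaks. Of the 15 genes, 7 had a promoter peak in the wild type alone and 1 (Fasl) in the knockout alone. These were mostly other genes than those with many members: of the 7, only Cd226 and Klrk1 had at least 3 members, and Nkg7, Klrd1 and Ccl5 had none. Over all genes those shares were 2.19% and 10.6%.

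Monocyte and macrophage markers had 50 members, 110 shared and 44 knockout-only peaks, with at least 3 members at 10 of 22 genes, 7 of which leaned to the wild type. Itgam, the integrin subunit CD11b, had 8 members, 6 shared and 1 knockout-only peak. Fcrls, an Fc receptor-like gene of tissue macrophages, had 5 members and no other distal peak, and its promoter peak too was found in the wild type alone. Its members lay 26689 to 67340 bp from the nearest knockout peak. Fcgr3, a low-affinity Fc gamma receptor, had 5 members and 1 knockout-only peak. Cx3cr1 had 6 members and 10 knockout-only peaks, so the list was not uniform.

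Kupffer cell markers, those of the resident macrophages of the liver, had 24 members, 41 shared and 32 knockout-only peaks. Vsig4 had 6 members, 1 shared and no knockout-only peak, and a promoter peak in the wild type alone. Of its 6 members, 5 were also assigned to another gene. Timd4, a phosphatidylserine receptor, had 4 members, 7 shared and 1 knockout-only peak, and Cd5l, a secreted macrophage protein, 4, 6 and 2. Clec4f, Marco and the C1q genes had no member at all, and 9 of the 17 genes had none. Promoter peaks were in both libraries for 14 of the 17.

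Mertk, the gene removed in the knockout, had 4 members, 5 shared and 6 knockout-only distal peaks and a promoter peak in both libraries. All 4 members lay inside the gene on chromosome 2, at 128709157-128710027, 128710515-128711363, 128781988-128782873 and 128796205-128797098. The nearest knockout peaks stood 3610 to 8917 bp away. The sources used here do not say which part of the gene was removed, so these peaks do not check the labels.

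T cell markers had 29 members and 46 knockout-only peaks, with 5 of 20 genes at 3 or more. Il7r, the interleukin-7 receptor, had 5 members and 4 knockout-only peaks, Cd28, the costimulatory receptor, 4 and 3, Themis, a signalling protein of thymocytes, 4 and 6, and Cd4, the helper cell coreceptor, 3 and 3. All 4 members of Themis were also assigned to another gene. B and plasma cell markers had 32 members and 42 knockout-only peaks. Of the 32 members, Bach2 carried 19 and Bank1, a B cell scaffold, 5, while Ebf1 and Cr2 had no member and 5 knockout-only peaks each. Neutrophil markers had 13 members and 17 knockout-only peaks, and 10 of the 16 genes had no member. Of the 16 genes, 2 had at least 3 members: Ltf, lactotransferrin, with 4 and Retnlg, a resistin-like granulocyte gene, with 3. Dendritic cell markers had 18 members and 19 knockout-only peaks. Flt3, the receptor for Flt3 ligand, had 4 members and 2 knockout-only peaks, Clec10a, a C-type lectin, 3 and 1, and Itgae, the integrin CD103, 3 and 5. All members of Flt3 and of Itgae were also assigned to another gene.

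Markers of hepatocytes, cholangiocytes and stellate cells had few members, and few wild-type distal peaks of any kind. The 19 hepatocyte genes had 10 members, 17 shared and 102 knockout-only peaks, and 15 of the 19 had no member. Members were thus 37.0% of the wild-type distal peaks of these genes, beside 32.9% over all genes and 31.2% for monocyte and macrophage markers. The share was 26.1% for cholangiocyte, 28.6% for stellate cell and fibroblast, 14% for endothelial and 47.7% for natural killer and cytotoxic cell markers. Ass1, an enzyme of the urea cycle, had 4 members and Ttr, transthyretin, had 3, but 3 of each gene's members were also assigned to another gene. Over all members, 20.6% were assigned to 2 or more genes. Cholangiocyte markers had 6 members against 45 knockout-only peaks and stellate cell and fibroblast markers 6 against 58, with no gene at 3 members in either list. Endothelial markers had 18 against 124. Vwf, the von Willebrand factor, had 6 members and 8 knockout-only peaks, and Pecam1 and Stab2 had 3 members each with 11 and 15 knockout-only peaks. The promoter peak was in the knockout alone for 7 of 14 stellate cell genes, 3 of 14 cholangiocyte genes and 1 of 19 endothelial genes.

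**Figure D4:**
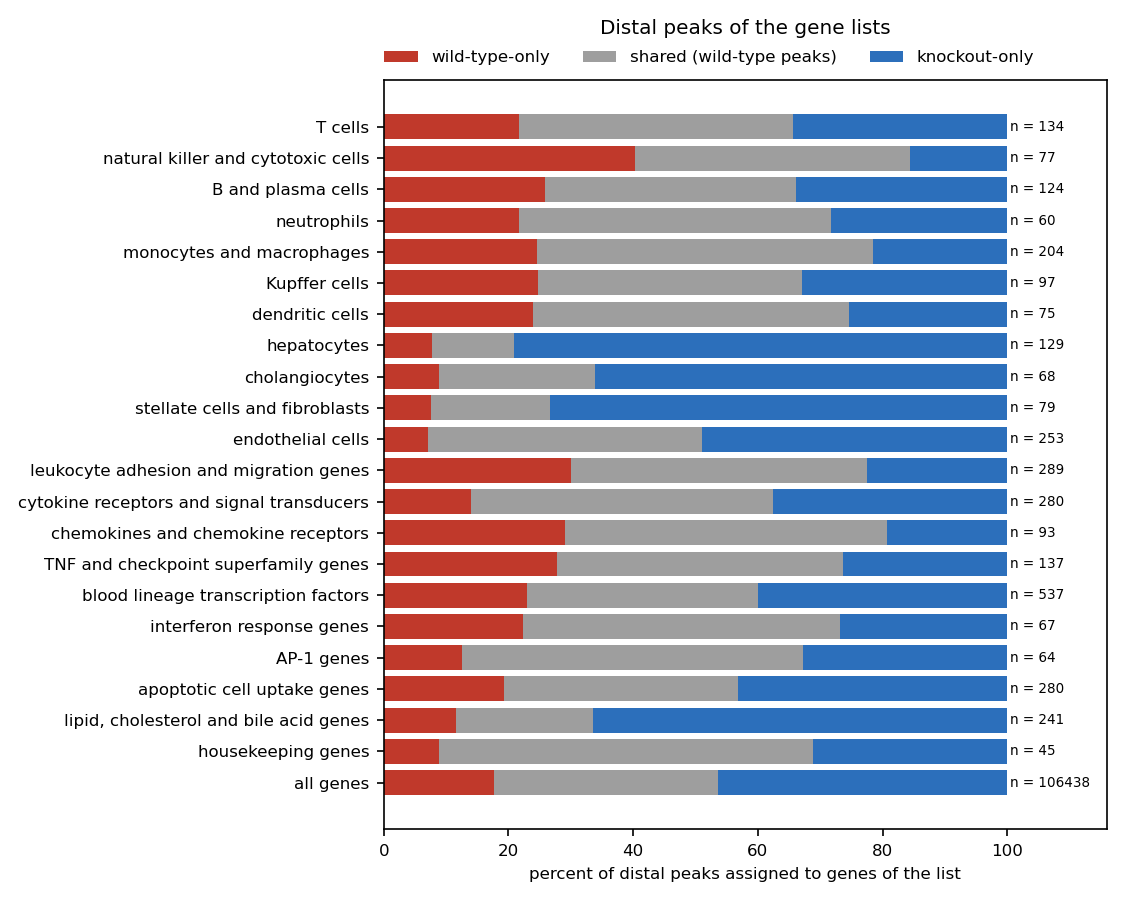
Make-up of the distal peaks assigned to each gene list, in percent of all of them (n at the right), split into wild-type-only (red), shared as counted in the wild type (grey) and knockout-only (blue). Natural killer markers have 31 red against 12 blue peaks, and hepatocyte markers 10 against 102; the bottom bar holds all genes.

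Leukocyte adhesion and migration genes had 87 members, 137 shared and 65 knockout-only peaks, and 11 of 23 genes had at least 3 members, 9 of them leaning to the wild type. Elmo1, the partner of Dock proteins in Rac activation, had 14 members and 13 knockout-only peaks. Dock2, the exchange factor of leukocyte movement, had 8 and 4, and Cd44, the hyaluronan receptor, also had 8 and 4. Itgb1 and Dock8 had 8 members as well, with 3 and 12 knockout-only peaks. Itga4, described above, had 10 and 0.

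Chemokines and their receptors had 27 members and 18 knockout-only peaks, and the 5 genes at 3 or more (of 17) all leaned to the wild type. All 5 were receptors: Cxcr4 (6 members and 4 knockout-only peaks), Ccr6 (5 and 1), Ccr1 (4 and 1), Ccr9 (3 and 1) and Cxcr3 (3 and 1). Genes of the TNF and checkpoint superfamilies had 38 members and 36 knockout-only peaks. Beside Tnfsf8, Pdcd1lg2, the ligand PD-L2, had 4 members and 4 knockout-only peaks, Pdcd1, the receptor PD-1, 3 and 0, and Tigit, an inhibitory receptor of T and natural killer cells, 3 and 1. Cytokine receptors and signal transducers had 39 members and 105 knockout-only peaks, with 5 of 27 genes at 3 or more. Ifngr1, the interferon gamma receptor chain, had 6 members and 3 knockout-only peaks, the decoy receptor Il1r2 had 6 and 5, its signalling counterpart Il1r1 had 5 and 18, and Il10ra, the interleukin-10 receptor, 3 and 3.

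Blood lineage transcription factors carried 123 members, 199 shared and 215 knockout-only peaks. 16 of 34 genes had at least 3 members, and 8 of them leaned to the wild type. Runx2, a RUNX factor best known from bone, had 14 members, 2 shared and 4 knockout-only peaks, and 12 of the 14 lay inside the gene. Of the 14, 13 were also assigned to another gene. Rel, the NF-kB subunit c-Rel, had 8 members, 1 shared and 3 knockout-only peaks. Mef2c, a factor of myeloid, B and endothelial cells, had 7 members, 11 shared and no knockout-only peak. Foxp1, with the most members of the list, had more knockout-only peaks than members.

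The remaining lists had fewer members than knockout-only peaks, as had all genes together at 0.379 members for each knockout-only peak. Interferon response genes had 15 members and 18 knockout-only peaks, a ratio of 0.833, with Ifit3 at 4 and 0 and Ifi44 at 3 and 1. No AP-1 gene had 3 members (8 members against 21 knockout-only peaks over 10 genes, a ratio of 0.381), and neither did any of 15 housekeeping genes (4 against 14, a ratio of 0.286). Apoptotic cell uptake genes had 54 members and 121 knockout-only peaks, a ratio of 0.446, and 4 of the 10 genes at 3 or more leaned to the wild type. The lipid transporter Abca1 had 4 members and 13 knockout-only peaks and the scavenger receptor Cd36 4 and 8. The Mertk ligands Gas6 and Pros1 had 1 member each, with 7 and 6 knockout-only peaks. Lipid, cholesterol and bile acid genes had 28 members and 160 knockout-only peaks, a ratio of 0.175, with 9 members at Pparg, the nuclear receptor of fat storage and macrophages, and 4 each at Cpt1a, of fatty acid oxidation, and Lpin1, of triglyceride synthesis.

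Gene families with neighbouring members, picked after their values were seen, gave a closer view of single loci. Killer cell lectin-like receptors (Klr) had 25 members, 17 shared and 5 knockout-only peaks over 18 genes. The Sirp genes had 15 members and no knockout-only peak, all 15 at Sirpb1a, Sirpb1b and Sirpb1c and none at Sirpa. Trem genes had 12 members and 3 knockout-only peaks, and Slam genes 22 and 9. Some other immune families did not have more members than knockout-only peaks. C-type lectins had 36 and 45, Toll-like receptors 12 and 22, and Dock genes 74 and 108. Cd300 genes had 6 and 6 and guanylate-binding proteins 14 and 14. In this order they had 0.8, 0.545, 0.685, 1.0 and 1.0 members for each knockout-only peak, all above the 0.379 over all genes. The ratio was 5.0 for Klr, 4.0 for Trem and 2.44 for Slam genes. Cytochrome P450 genes had 28 members against 267 knockout-only peaks, serpin A genes 7 against 81 and collagens 34 against 181. Their ratios of 0.105, 0.0864 and 0.188 lay below that over all genes. Peaks between neighbours of a family are assigned by the nearest start, so the counts of single family genes share this uncertainty.

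Of the members, 10921 (58.3%) had no other member within 10 kb. Runs of at least 5 members with gaps of at most 10 kb numbered 98 and held 539 members (2.88%). Their number rests on the settings: it was 18 with gaps of at most 5 kb, 335 with gaps of at most 20 kb, and 60 over members with no knockout peak within 500 bp. 3 clusters had 8 members, 10 had 7, 20 had 6 and 65 had 5, over a median of 22.1 kb (7.32 to 50 kb). The same rule gave 1220 clusters of knockout-only distal peaks with 15.4% of those peaks and up to 20 in a run. Of the 98 clusters of members, 22 contained no knockout peak at all and 60 no knockout-only distal peak. A protein-coding or long non-coding RefSeq gene spanned 42 of them whole, and 19 held a wild-type promoter peak.

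The 3 clusters of 8 lay inside long genes. That of Celf2, an RNA-binding splicing regulator, spanned 32.2 kb (chr2:6686596-6718757) with 3 shared distal peaks and 3 knockout peaks. That of Lrch1, a regulator of leukocyte migration, spanned 34.2 kb (chr14:74905740-74939969) with 2 and 2, and that of Dock10 spanned 50 kb (chr1:80626814-80676839) with 4 and 4. None of the 3 held a knockout-only distal peak, so every knockout peak in them matched a wild-type one. In each, shared peaks stood among the members, and the cluster of Dock10 also held 2 wild-type promoter peaks. Of these, the promoter peak chr1:80665811-80666139 overlapped no knockout peak. Outside the clusters the genes did have knockout-only distal peaks: Celf2 had 12 members and 10 knockout-only peaks in all, and Lrch1 12 and 12.

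The tightest cluster of 7 lay at Treml4, a Trem-like receptor of myeloid cells. All 7 of its members fell within 17.3 kb (chr17:48261601-48278928), of which they covered 30.9%, beside a shared promoter peak and 1 knockout-only distal peak. 2 of the 7 stood 107 and 28 bp from that knockout peak, so they are members by a narrow gap. At the eosinophil-associated ribonuclease Ear2 and the neighbouring predicted gene Gm49099, 7 members spanned 21.6 kb (chr14:44077494-44099059) with no peak of the knockout. The same held for the 7 members within 25.4 kb of Camk1d, a calcium and calmodulin-dependent kinase (chr2:5681839-5707204). These clusters are the opposite of those in Celf2 and Dock10, since nothing in them was shared. Beside the Camk1d run, 4367 bp before its first member, lay a knockout-only promoter peak (chr2:5676600-5677471). Over all its assigned distal peaks, Camk1d had 14 members, 9 shared and 23 knockout-only ones, so the run does not stand for the gene.

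Stau1, a double-stranded RNA-binding protein, held 7 members over 24.2 kb (chr2:166956562-166980811) with 2 knockout peaks, 1 of them knockout-only. Hacd4, an enzyme of fatty acid elongation, had 7 over 30.6 kb (chr4:88449849-88480470), outside its RefSeq gene, with 1 knockout-only peak and none shared. The cluster at the predicted gene Gm20750 (chr3:52863139-52897100) had 1 knockout peak, which was shared. At Morrbid, a long non-coding RNA known for controlling the survival of short-lived myeloid cells through Bcl2l11, 7 of the 15 members spanned 36.1 kb (chr2:128443868-128479936) with 4 knockout peaks, 1 of them knockout-only. In smaller runs, picked after their values were seen, the 6 members at Lyn, a Src family kinase of B and myeloid cells (chr4:3755215-3775332), and the 5 at Sirpb1a (chr3:15458665-15475633) had no knockout peak, while the 6 at Itgam (chr7:128036822-128066234) stood among 5.

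**Figure D5:**
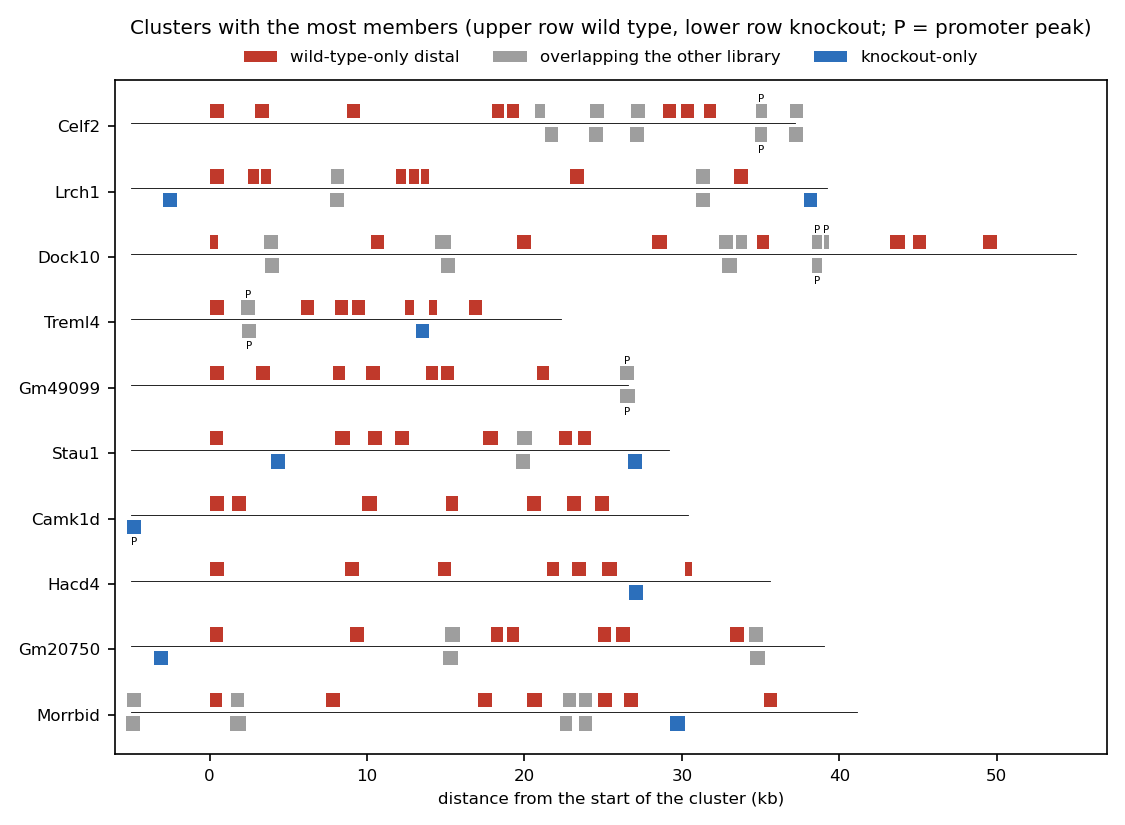
The 10 clusters with the most members (ties by the shorter span), each drawn to scale from its start with 5 kb on either side. Wild-type peaks are in the upper row and knockout peaks in the lower row, with P at promoter peaks. Members are red, knockout-only peaks blue and peaks that overlap the other library grey. The wild-type-only promoter peak of Dock10 (chr1:80665811-80666139) is drawn grey too. Celf2, Lrch1 and Dock10 mix 8 red boxes with grey ones, and the clusters of 7 at Gm49099 (with Ear2) and Camk1d hold red boxes alone within their spans. Beside the spans, the Gm49099 rows each show a grey promoter peak and the Camk1d knockout row a blue promoter peak.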

How the data were processed

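Open chromatin and RNA were measured in the same liver nuclei, with 1 library of each per genotype. Per the file headers, each library's peaks come from a cellranger-arc 2.0.2 run of its own on the mm10 build; caller settings: not given in the sources used here. A deposited list gives peak positions without height or score, and the deposited annotation gives each peak a gene, a distance in bp and a type. The per-barcode counts that the authors deposited were not normalised, and depth was summed from them over called nuclei. Depth limits peak calling, and no interval is given for a peak.

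Peaks were intersected in Python 3.11.15 (pandas 2.3.3), with an overlap of at least 1 bp; the count was checked with bedtools 2.31.1 and the scripts were tested on simulated peaks. Other contigs were left out (43 peaks of the wild type, 44 of the knockout). A gene counts each peak with an annotation line for it. RefSeq (GRCm38.p6) matched 85.4% of the genes by symbol. The members and lists were chosen with earlier results of these data known. Named genes (predicted and clone names left out) were the 15 with the most members, ties kept; 10 with at least 4 members and no knockout-only peak; up to 4 per list with at least 3; those of the 10 largest clusters; and Mertk. Where the limit of 10 genes, or of 4 per list, fell among equal counts, genes were taken in alphabetical order. Others named were chosen after their values were seen. Base content and motifs in the middle of the peaks were planned but not run, since no genome sequence was used here; motifs in RefSeq windows were added after seeing the data. Alternatives varied the overlap, a minimum width, the gap of clusters, the lines counted and the list threshold.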

Additional observations from a re-analysis of the deposited data

How the results depend on the processing

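Of 27 alternative values, 19 stayed within their limit and 8 moved. The limit was 1.5 times for a count and the 95% binomial interval for a share (counting error only). For the median width it was 1 standard deviation of the widths of single members, a wide limit for a median. That median was 862 to 870 bp in the alternatives, beside 864 bp. The 98 clusters became 335 with gaps of up to 20 kb, 18 with gaps of up to 5 kb and 60 with members that had no knockout peak within 500 bp. The 89 list genes with at least 3 members became 136 at a threshold of 2. The 947 genes with 5 or more members became 117 when only lines with a distance of 0 were counted. The share of members in a gene body was 21.3% by those lines and 63.3% by RefSeq genes. The 70.0% of members whose nearest assigned gene had a promoter peak in both libraries became 69.1% without a knockout peak within 500 bp, and 63.9% when the nearest line with a distance above 0 chose the gene, an alternative added after seeing the data. The number of members ranged from 16402 to 19593. Base content and motifs in central windows of the peaks, and their shorter alternative, were not run, since no genome sequence was used here. The knockout library had 2.06 times the fragments, and the effect of depth on either list was not tested in these files. No paired analysis was possible because each genotype had 1 library.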
